A study of Mus musculus with 13 samples.

Results

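The 23 genes described here encode the chains of mouse antibodies and a pair of proteins that help to build them, and their RNA was counted in whole mammary glands and in mammary tumours. They were chosen by name (immunoglobulin constant and variable region symbols, Jchain and Mzb1) and by a summed count of 200 or more over the 10 libraries analysed, which 23 of 234 symbols with such names reached, in a table of 38279 symbols. The choice therefore used the counts themselves, though not the difference between tumour and gland. The members were 6 heavy chain constant region genes (Ighm, Ighd, Ighg1, Ighg2b, Ighg3 and Igha), 1 heavy chain variable segment (Ighv6-6), 8 kappa variable segments, the kappa constant region Igkc, 3 lambda constant regions (Iglc1, Iglc2 and Iglc3), 2 lambda variable segments (Iglv1 and Iglv3), Jchain and Mzb1. Igkv5-43, Ighg3 and Igkv6-32 were just inside the limit with summed counts of 217, 221 and 227, and Igkv6-17, Igkv12-44 and Igkv3-2 were just outside with 194, 190 and 190. Ighe, Ighg2c and Iglc4 were also under the limit and are not members.

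The study concerns Fbxw7, which selects proteins for ubiquitination by an SCF ligase, and mammary tumours that form after its loss. The 4 gland libraries came from whole mammary gland of Cre-negative, wild-type mice, aged 20 weeks (glands 1 to 3) or 40 weeks (gland 4). The 6 tumour libraries came from mammary tumour tissue of Cre-positive mice aged 25, 32, 39, 19, 53 and 25 weeks (tumours 1 to 6), and mice of both kinds were mated at 12 weeks of age, which in the Cre-positive mice induces the excision. The labels do not name the promoter that drives Cre, and genotype, tissue and age differ together between the groups, so they cannot be told apart. Of 13 samples, 3 of purified epithelium were not analysed here.

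Libraries held between 13723065 (gland 3) and 48353114 (gland 2) counts. Some libraries stood apart in what tissue they held. A list of 16 salivary gland genes made up 52.3% of all counts in tumour 1, 19.5% in tumour 6 and at most 0.0529% elsewhere. Mitochondrial genes took 37.5% of the counts of gland 4, against 8.07% to 14.0% in the others. Skeletal muscle markers made up 7.02% of all counts in gland 4 and 1.31% in gland 1. The summed level of 12 T cell markers was 900 and 754 TMM-scaled CPM (counts scaled to a common library size) in glands 2 and 3 and 119 in tumour 5, against at most 26.2 in the other 7 libraries. That of 10 lymph node stroma and vessel genes was 1531 and 1223 CPM in glands 2 and 3, 660 in tumour 6 (632 of it Glycam1, a mucin of lymph node vessels that milk-producing epithelium also makes) and 181 in tumour 5. Of the 181 CPM in tumour 5, 82.15 came from Cr2, a complement receptor that is also among the B cell markers. Luminal epithelial markers were higher in the tumours for 7 of 8 genes, and adipocyte markers lower for 8 of 8, by the edgeR test described further on.

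An antibody is made of a pair of identical heavy chains and a pair of identical light chains. Each developing B cell joins a variable segment to short joining segments at its heavy chain locus, and another at the kappa or a lambda locus, and the constant region genes follow in the transcript. Naive B cells carry mu (Ighm) and delta (Ighd) heavy chains together on their surface. After activation a B cell can switch to gamma (IgG), epsilon (IgE) or alpha (IgA) constant regions, and plasma cells then secrete the antibody in quantity. In the mammary gland, as in other mucosal tissues, plasma cells make IgA that is joined by the J chain (Jchain) and carried across the epithelium by the polymeric immunoglobulin receptor (Pigr). Mzb1 is an endoplasmic reticulum protein of B and plasma cells that assists antibody assembly.

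Sequences of 5 members are shown, because they led the counts of a class or because they are so alike that reads may be divided between them. They are stretches of 300 bases inside 1 coding exon, read from GENCODE M21 transcripts (GRCm38) by gene symbol, which matched 23 of 23 members. The heavy chain locus lies on chromosome 12, the kappa locus on chromosome 6 and the lambda locus on chromosome 16. Igkv1-110 (chr6:68270955-68271254, plus strand) was the most counted kappa variable segment in 4 of the tumours. Igkv1-117 (chr6:68121515-68121814, plus strand) is its closest relative, and capitals mark the 10 positions at which the 2 differ.
Igkv1-110: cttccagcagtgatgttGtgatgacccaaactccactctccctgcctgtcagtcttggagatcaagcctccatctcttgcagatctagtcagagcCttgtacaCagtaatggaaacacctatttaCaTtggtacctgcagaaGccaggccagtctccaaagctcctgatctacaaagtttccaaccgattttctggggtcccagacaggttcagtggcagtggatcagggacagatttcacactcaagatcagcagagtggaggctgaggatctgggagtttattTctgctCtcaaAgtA
Igkv1-117: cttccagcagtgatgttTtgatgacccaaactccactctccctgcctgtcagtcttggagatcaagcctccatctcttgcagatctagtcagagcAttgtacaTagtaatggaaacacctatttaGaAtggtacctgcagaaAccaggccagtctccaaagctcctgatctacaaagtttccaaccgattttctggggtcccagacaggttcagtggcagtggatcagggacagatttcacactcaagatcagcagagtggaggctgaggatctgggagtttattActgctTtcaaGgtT
The lambda constant regions Iglc2 (chr16:19198553-19198852, minus strand) and Iglc3 (chr16:19065382-19065681, minus strand) differ at the 11 positions in capitals.
Iglc2: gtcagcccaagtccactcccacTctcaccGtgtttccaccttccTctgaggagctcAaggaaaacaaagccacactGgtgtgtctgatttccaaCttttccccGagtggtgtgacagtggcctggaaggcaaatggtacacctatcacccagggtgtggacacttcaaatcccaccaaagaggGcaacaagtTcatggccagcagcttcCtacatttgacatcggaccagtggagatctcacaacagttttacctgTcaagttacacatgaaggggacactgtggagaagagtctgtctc
Iglc3: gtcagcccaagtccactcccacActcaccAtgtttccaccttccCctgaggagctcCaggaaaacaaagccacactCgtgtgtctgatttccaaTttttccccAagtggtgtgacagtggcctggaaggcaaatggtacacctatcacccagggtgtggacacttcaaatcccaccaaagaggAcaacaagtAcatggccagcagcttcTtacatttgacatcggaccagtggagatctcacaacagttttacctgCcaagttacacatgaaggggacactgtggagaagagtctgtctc
Ighv6-6 (chr12:114434799-114435098, minus strand) was the only heavy chain variable segment to reach the limit, and 213 of its 230 counts came from tumour 6.
Ighv6-6: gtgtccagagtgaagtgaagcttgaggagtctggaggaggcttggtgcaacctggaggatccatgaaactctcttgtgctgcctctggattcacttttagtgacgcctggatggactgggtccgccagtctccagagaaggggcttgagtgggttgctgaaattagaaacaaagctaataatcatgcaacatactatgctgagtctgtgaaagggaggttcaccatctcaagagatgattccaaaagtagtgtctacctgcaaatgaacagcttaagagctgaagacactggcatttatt
The first pair is identical at 96.7% of these bases and the second at 96.3%. Other segments had closer relatives still: Igkv5-43 is identical to Igkv5-45 at 99.0% of aligned bases, Ighv2-2 to Ighv2-4 at 98.03%, and Iglv1 to Iglv2 at 97.4%. Counts of such segments are uncertain, since the sources used here do not say how shared reads were divided.

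The members together took a small and very uneven share of the counts. In glands 1 to 4 it was 0.00913%, 0.0798%, 0.0727% and 0.00575%. In tumours 1 to 6 it was 0.0169%, 0.00895%, 0.000387%, 0.000474%, 0.0365% and 0.0550%. The groups overlapped, but tumours 3 and 4, with 176 and 215 member counts in all, lay below every gland, and glands 2 and 3 lay above every tumour. The median was 0.0409% in the glands and 0.0129% in the tumours. With salivary and mitochondrial counts taken out of the total, the shares of tumours 1 and 6 were 0.0428% and 0.0759%, and the medians were 0.0476% in the glands and 0.0250% in the tumours. In whole tissue, fewer cells of a type and less RNA per cell cannot be told apart.

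The alpha share of heavy chain counts separated gland from tumour, which the summed amount did not. Alpha made up a far larger share of heavy chain counts in the tumours than in the glands. Of the counts on the 6 heavy chain constant region genes, Igha, the alpha chain of IgA, took 1.24%, 0.204%, 0.190% and 0.538% in glands 1 to 4. In tumours 1 to 6 it took 78.0%, 61.5%, 11.2%, 4.93%, 33.9% and 89.4%. Every tumour was above every gland in this share. The shares in tumours 3 and 4 rest on 12 of 107 and 7 of 142 counts, with exact 95% binomial intervals of 5.93% to 18.8% and 2.01% to 9.89%, which are still above the highest gland interval (0.852% to 1.73% in gland 1). Such intervals cover counting error only. No test was made on these shares, and since the genes differ in length they are compared between libraries and not between genes. The separation depends on heavy chain counts as the base, which in glands 1 and 4 held much Ighm beside few light chain counts. Set against light chain counts, Igha overlapped between the groups. It had 8 counts beside 24 in gland 4, against 7 beside 26 in tumour 4 and 1415 beside 5819 in tumour 5. Gland 4 lay below the other tumours, and the other glands lay below every tumour.

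**Figure D1:**
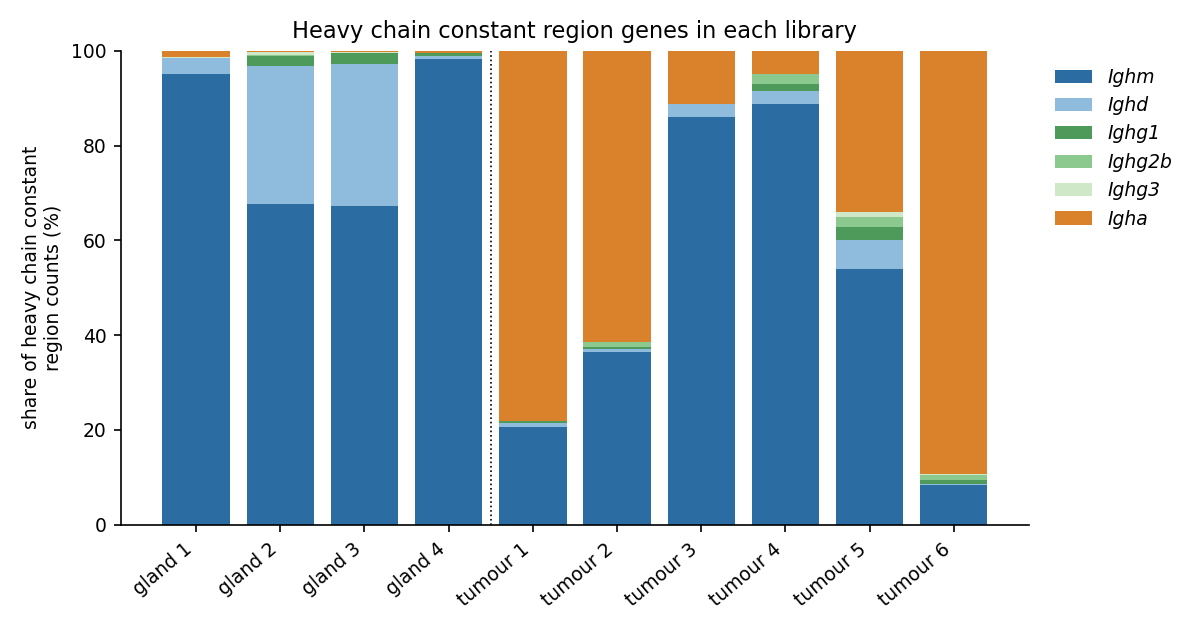
Share of heavy chain constant region counts (y axis, %) taken by each of 6 genes in each library (x axis, 4 glands left of the dotted line and 6 tumours right of it). Igha takes at most 1.24% in the glands and 4.93% to 89.4% in the tumours.

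The high alpha share in the tumours was not limited to the libraries with salivary transcripts. Tumours 1 and 6, in which salivary genes took 52.3% and 19.5% of the counts, had 78.0% and 89.4% alpha. Salivary genes took at most 0.0443% in the other 4 tumours. Of these, tumours 2 and 5 had 61.5% and 33.9% alpha, and tumours 3 and 4, where Igha itself was below every gland in CPM, had 11.2% and 4.93%. The part of salivary tissue in the values of tumours 1 and 6 was not tested.

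Ighm, the mu chain, took 95.1%, 67.7%, 67.2% and 98.2% in glands 1 to 4 against 20.6%, 36.4%, 86.0%, 88.7%, 54.0% and 8.36% in tumours 1 to 6. The groups overlapped here, with tumours 3 and 4, which held few heavy chain counts, inside the range of the glands. Ighd, the delta chain of naive B cells, divided the glands among themselves. It took 29.1% and 30.0% in glands 2 and 3, but 3.33% and 0.740% in glands 1 and 4. In the tumours its share ran from 0.199% in tumour 6, through a median of 1.82%, to 6.17% in tumour 5. Per Ighm count there were 0.430 and 0.446 Ighd counts in glands 2 and 3, 0.114 in tumour 5 and at most 0.0402 in the other 7 libraries.

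The gamma genes held at most 5.93% of heavy chain counts in any library. Ighg1, Ighg2b and Ighg3 together took 0.374%, 2.93%, 2.65% and 0.538% of heavy chain counts in glands 1 to 4. In the tumours they ranged from 0 in tumour 3, through a median of 1.70%, to the highest value in tumour 5. In tumour 3 each of the 3 genes was at 0 of 107 counts, where the exact interval of each reaches 3.39%. Ighg2b took 0.0375%, 0.295%, 0.0634% and 0 in glands 1 to 4, against 0.104%, 1.09%, 0, 2.11%, 2.16% and 0.981% in tumours 1 to 6, where that of tumour 4 rests on 3 of 142 counts. Ighg1 took 0.112%, 2.01%, 2.28% and 0.538% in the glands and 0.414%, 0.251%, 0, 1.41%, 2.69% and 0.967% in the tumours. Both genes overlapped between the groups and had their highest share in tumour 5.

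Levels of the single genes were compared with edgeR's quasi-likelihood test on all 20101 genes that passed its filter on low counts, with Benjamini-Hochberg adjustment and a threshold of 0.05. Levels are TMM-scaled CPM and fold changes are tumour over gland on the log2 scale. Of the 23 members 20 passed the filter, and Ighg3, Ighv6-6 and Igkv6-32 did not. Of those 20, 1 rose (Igha) and 2 fell (Ighm and Ighd), while 6.89% of all genes tested rose and 8.19% fell. The members' share of calls was thus close to that of all genes. At an unadjusted edgeR p under 0.05, 16.1% of all genes tested were lower. DESeq2 called 2881 genes higher and 2742 lower of 25545 tested. Counts of calls in the gene lists further on are to be read beside these values. The median log2 fold change was -0.56 over the 20 members and 0.17 over all genes tested. Whether each library is a separate animal is not stated in the labels, so the p-values describe the spread among the libraries only.

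Ighm fell, with the smallest adjusted p of the 20 members tested. Its level was 72.4, 243, 236 and 92.7 CPM in glands 1 to 4, against 27.1, 6.55, 2.27, 2.18, 41.7 and 16.3 CPM in tumours 1 to 6. Every gland was above every tumour, which held for no other member and for 7.56% of all genes tested. The reverse, every tumour above every gland, held for no member and for 6.47% of all genes tested. The means were 161 ± 91.1 (SD, n = 4) and 16.0 ± 15.8 CPM (SD, n = 6), and the log2 fold change was -3.33 ± 0.81 (SE), with an adjusted p of 0.0230 by edgeR. The call was lost without gland 2 (adjusted p = 0.0593) or gland 3 (adjusted p = 0.0538) in the edgeR fit. Without both of them the log2 fold change was -2.37 and the edgeR adjusted p 0.190.

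Ighd was high in the 2 glands with T cell and lymph node transcripts and low nearly everywhere else. It measured 2.54, 105, 105 and 0.699 CPM in glands 1 to 4 and 1.09, 0.151, 0.0741, 0.0692, 4.76 and 0.389 CPM in tumours 1 to 6. Glands 1 and 4 thus lay inside the range of the tumours. The log2 fold change was -5.60 ± 1.55 (SE; edgeR adjusted p = 0.0349), and without glands 2 and 3 it was -0.59 (edgeR adjusted p = 0.835). The call was also lost without any 1 of glands 1, 2 and 3 or of tumours 1, 2, 3, 4 and 6, with edgeR adjusted p-values of up to 0.0828 over all single libraries left out, with limma-voom (adjusted p = 0.0634) and with age as a covariate (edgeR adjusted p = 0.0619). Without tumour 5 the log2 fold change was -7.40. The part of lymph node tissue in this difference was not tested beyond that value.

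Igha was even in the glands and widely spread in the tumours. Its level was 0.941, 0.733, 0.667 and 0.508 CPM in glands 1 to 4. In tumours 1 to 6 it was 103, 11.1, 0.297, 0.121, 26.2 and 174 CPM. Tumours 1, 2, 5 and 6 were above all glands, and tumours 3 and 4 were below all of them. The means were 0.712 ± 0.179 (SD, n = 4) and 52.4 ± 71.0 CPM (SD, n = 6), with a log2 fold change of 6.19 ± 1.82 (SE) and an edgeR adjusted p of 0.0425. The call did not survive leaving out any single gland or any 1 of tumours 1, 2, 5 and 6, with edgeR adjusted p-values up to 0.112, nor adding age as a covariate (edgeR adjusted p = 0.0557). Without tumour 6 the log2 fold change was 5.16. With limma-voom the log2 fold change was 2.98 (adjusted p = 0.456), and without tumours 1 and 6 it was 3.72 (edgeR adjusted p = 0.0884).

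**Figure D2:**
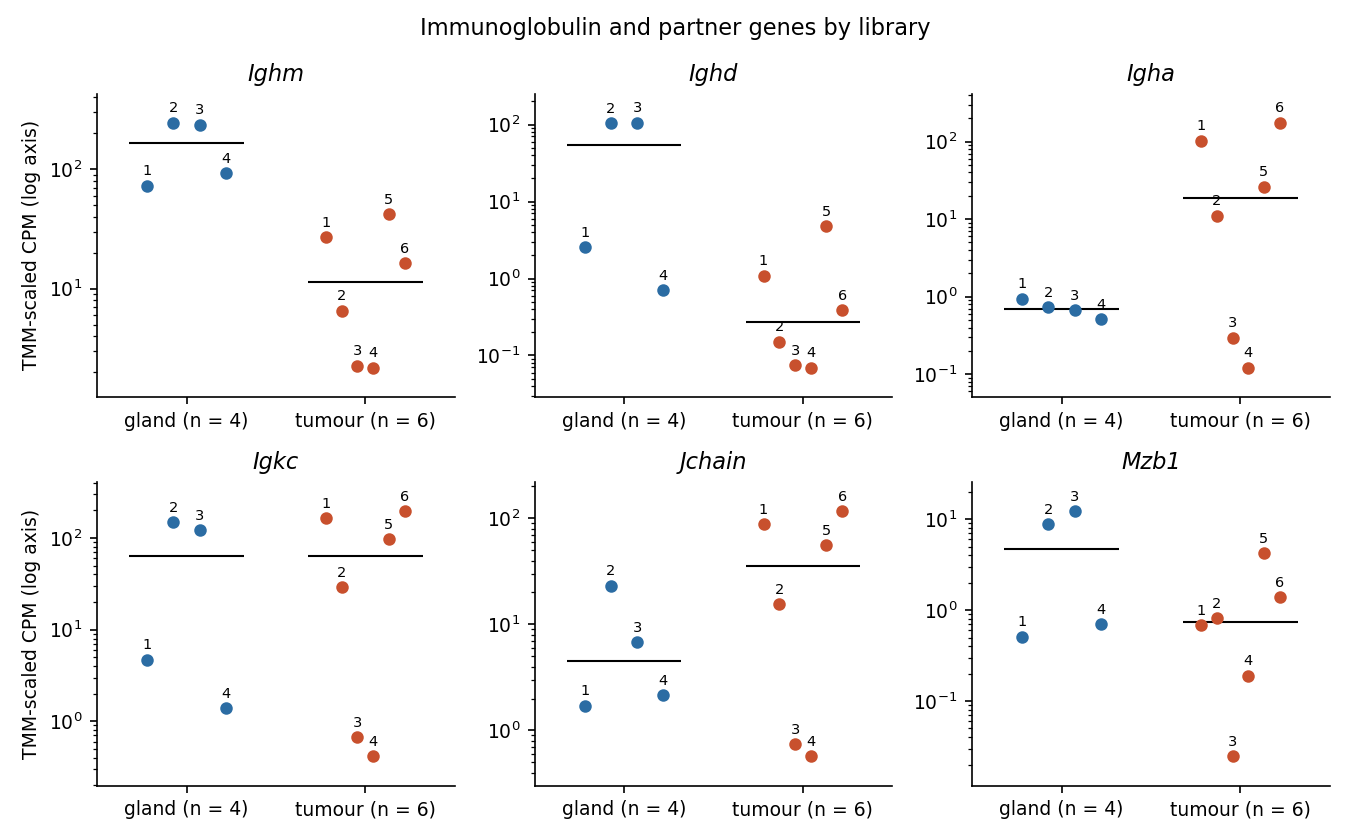
TMM-scaled CPM (y axis, log scale) of 6 members in 4 glands and 6 tumours (x axis), with each point a library marked by its number and each bar the group median. For Ighm every gland (72.4 to 243 CPM) lies above every tumour (2.18 to 41.7 CPM), whereas for Igha the tumours lie on both sides of the glands.

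No gamma gene tested passed by edgeR, by DESeq2 or at an unadjusted edgeR p under 0.05. Ighg1 measured 0.0855, 7.23, 8.01 and 0.508 CPM in glands 1 to 4 and between 0 (tumour 3) and 2.08 CPM (tumour 5) in the tumours, with a log2 fold change of -2.36 ± 1.42 (SE; edgeR adjusted p = 0.259). Ighg2b measured at most 1.06 CPM in a gland (gland 2) and at most 1.92 CPM in a tumour (tumour 6), with a log2 fold change of 0.93 ± 1.39 (SE; edgeR adjusted p = 0.657). Ighg3 was counted mainly in glands 2 and 3 (2.23 and 1.06 CPM) and tumour 5 (0.834 CPM), and it was at 0 in gland 4 and tumours 1 to 4.

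Jchain links IgA and IgM into polymers. Its level was 1.71, 23.1, 6.78 and 2.16 CPM in glands 1 to 4 and 88.4, 15.4, 0.741, 0.571, 55.9 and 116 CPM in tumours 1 to 6. Tumours 1, 2, 5 and 6 were high in both Jchain and Igha, whereas gland 2 had 23.1 CPM of Jchain beside 0.733 CPM of Igha. The groups overlapped, and the log2 fold change of 2.45 ± 1.38 (SE) did not pass the test (edgeR adjusted p = 0.229). Set against the heavy chain counts of the same library, Jchain was separated by group. There were 0.0225, 0.0643, 0.0193 and 0.0229 Jchain counts per heavy chain count in glands 1 to 4. In tumours 1 to 6 there were 0.673, 0.855, 0.280, 0.232, 0.724 and 0.596, so every tumour exceeded every gland. Set against light chain counts, Jchain did not separate the groups. Gland 4 had 34 Jchain counts beside 24 light chain counts, above every tumour, of which tumour 4 was highest with 33 beside 26. Glands 1 to 3 lay below every tumour.

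Mzb1 was highest in glands 2 and 3. It measured 0.513, 8.85, 12.2 and 0.699 CPM in glands 1 to 4, and in the tumours it ran from 0.0247 through a median of 0.748 to 4.26 CPM, highest in tumour 5. Its log2 fold change was -2.17 ± 1.15 (SE; edgeR adjusted p = 0.204). Over the 10 libraries, the Pearson correlation of log2 levels was 0.900 between Igha and Jchain, 0.919 between Igkc and Jchain, 0.892 between Ighm and Ighd and 0.008 between Ighm and Igha. That of Mzb1 was 0.926 with Ighg1, 0.882 with Ighd, 0.811 with Ighm, 0.779 with Igkc, 0.567 with Jchain and 0.214 with Igha. These are descriptions over libraries that share their tissue make-up and carry no test.

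The kappa constant region Igkc did not separate the groups. It measured 4.70, 149, 122 and 1.40 CPM in glands 1 to 4 and 164, 29.2, 0.667, 0.415, 97.0 and 195 CPM in tumours 1 to 6. Its log2 fold change was 0.23 ± 1.51 (SE; edgeR adjusted p = 0.926), and its sign changed without any 1 of gland 1, gland 4, tumour 1 and tumour 6 (-0.36 to 0.92 over the fits without 1 library). The lambda constant regions were highest in glands 2 and 3. Iglc2 measured 0.456, 18.4, 19.7 and 0.0635 CPM in the glands and 2.38, 0.242, 0.0988, 0.0346, 3.63 and 1.64 CPM in the tumours. Its log2 fold change was -2.85 ± 1.40 (SE; edgeR adjusted p = 0.175). Those of Iglc1 and Iglc3 were -1.30 ± 1.55 (SE; edgeR adjusted p = 0.570) and -3.30 ± 1.68 (SE; edgeR adjusted p = 0.189), and Iglc3 is so alike to Iglc2 that reads may be divided between them.

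As a share of light chain constant region counts, lambda took 19.9%, 22.1%, 27.4% and 8.33% in glands 1 to 4, against 3.05%, 1.48%, 18.2%, 7.69%, 10.1% and 2.96% in tumours 1 to 6. Only some of these are well measured. Gland 4 and tumours 3 and 4 held 24, 33 and 26 light chain counts, and their exact intervals (1.03% to 27.0%, 6.98% to 35.5% and 0.946% to 25.1%) reach into the range of both groups. Among the 7 libraries with more than 200 light chain counts, the 3 glands (19.9% to 27.4%) were above the 4 tumours (1.48% to 10.1%).

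The balance of heavy and light chain counts set glands 1 and 4 apart. Gland 1 held 2538 Ighm counts beside 165 Igkc counts, and gland 4 held 1460 beside 22. The number of Ighm counts per Igkc count was therefore 15.4 and 66.4 in these 2 glands, against 1.63 and 1.93 in glands 2 and 3. In tumours 1, 2, 5 and 6 it was 0.165, 0.225, 0.430 and 0.0837, and in tumours 3 and 4 it was 3.41 and 5.25 on few counts. The summed level of 12 B cell markers was 23.2 and 20.4 CPM in glands 1 and 4, of which Cd72 alone gave 4.70 and 14.9 CPM, and Blk and Fcrla were at 0 in gland 4. Cd79a, a signalling chain of the B cell receptor, measured 3.36, 97.7, 79.0 and 0.0635 CPM in glands 1 to 4. Ighm of glands 1 and 4 was nevertheless 72.4 and 92.7 CPM, above that of all 6 tumours. Variable segments were also scarce, with 25 Ighv counts in gland 1 and 0 in gland 4. The gene-level counts do not tell forms of the Ighm transcript apart, and the cause was not tested.

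**Figure D3:**
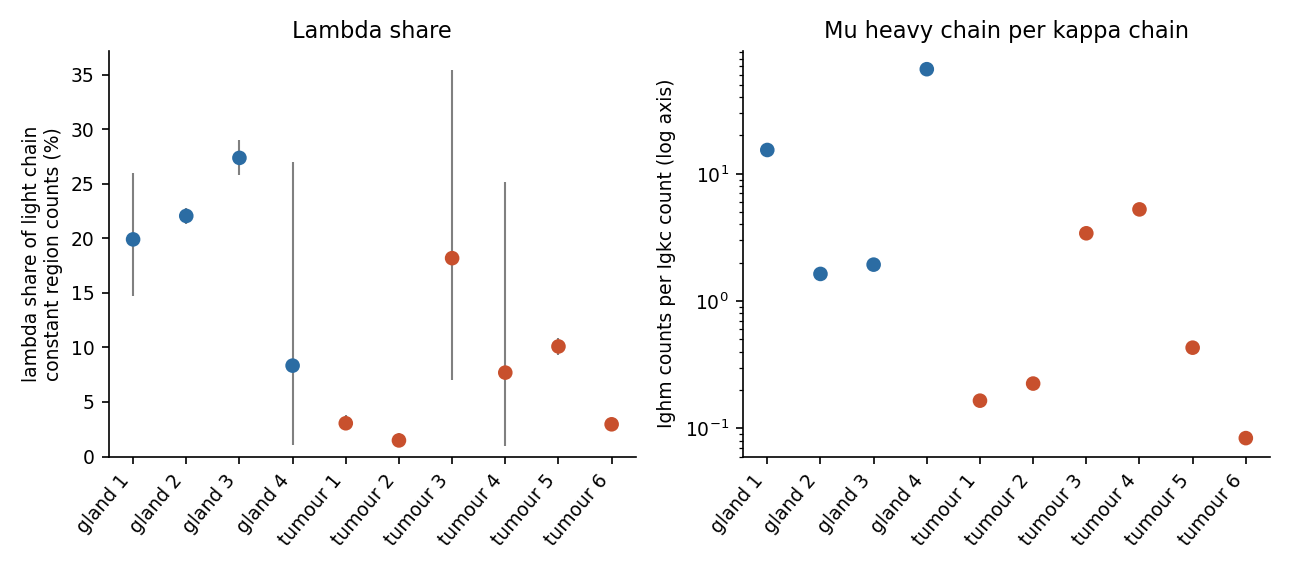
Left, lambda share of light chain constant region counts (y axis, %) in each library (x axis), with exact 95% binomial intervals as bars. Right, Ighm counts per Igkc count (y axis, log scale), which reach 15.4 and 66.4 in glands 1 and 4 and lie at 0.430 or less in tumours 1, 2, 5 and 6. Blue is gland and orange is tumour.

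Variable segments show how many germline genes the antibody RNA drew on. A symbol stands for a germline segment and not for a clone, so these numbers count segments. Over all 10 libraries the table held 1863 counts on 109 Ighv symbols, 9130 on 107 Igkv symbols and 882 on 3 Iglv symbols. The 8 kappa members carried 31.8% of the Igkv counts and Ighv6-6 carried 12.4% of the Ighv counts, so diversity was computed over all symbols of a class. For Igkv, 6 libraries held at least 100 counts, namely glands 2 and 3 (3242 and 874) and tumours 1, 2, 5 and 6 (503, 202, 1759 and 2457). The other 4 held 66 or fewer and are left out of the comparison of diversity.

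Kappa segments were used more evenly in the 2 glands than in the 4 tumours that could be compared. The inverse Simpson number, which is the number of equally used segments that would give the same evenness, was 49.9 and 46.6 in glands 2 and 3. It was 28.7, 14.7, 35.1 and 10.2 in tumours 1, 2, 5 and 6. Scaled to a depth of 200 counts, 66.0 and 61.9 segments were expected in the 2 glands and 54.6, 46.8, 58.8 and 49.3 in the 4 tumours. At 1000 counts the numbers were 91.0 in gland 2, 81.4 in tumour 5 and 74.8 in tumour 6. With 2 glands against 4 tumours, this is a description without a test, and both glands are those with lymph node transcripts.

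The leading segment of these 2 glands was not that of the 4 tumours. Igkv1-110 was the most counted kappa segment in tumours 1, 2, 5 and 6, with 10.1%, 20.3%, 7.56% and 28.9% of the Igkv counts. In glands 2 and 3 it took 2.78% and 2.75%, and the leading segments there were Igkv6-32 with 5.40% and Igkv1-117 with 4.92%. The exact intervals of the 4 tumours began at 6.37% or above. Igkv1-117, the close relative printed above, did not share this pattern, with 3.18% and 4.92% in glands 2 and 3 and 4.77%, 8.42%, 5.69% and 1.91% in tumours 1, 2, 5 and 6. In CPM Igkv1-110 was 19.7 in tumour 6, 3.47 in tumour 1 and at most 2.47 in any other library, and its log2 fold change of 2.60 ± 1.65 (SE) did not pass the test (edgeR adjusted p = 0.283) and was 0.75 without tumour 6.

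**Figure D4:**
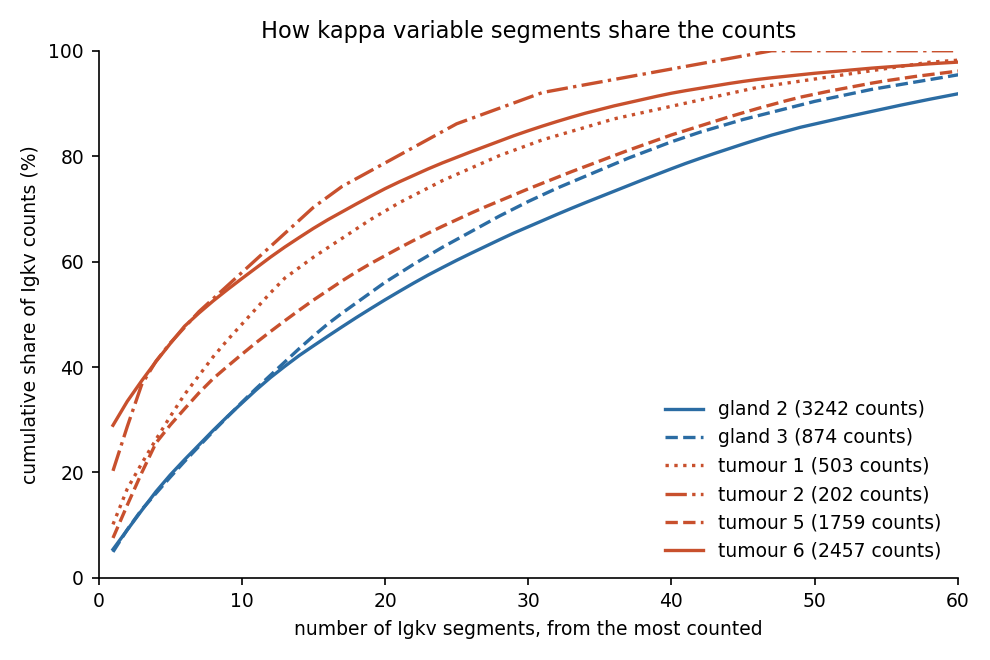
Cumulative share of Igkv counts (y axis, %) over segments ordered from the most counted (x axis) in the 6 libraries with at least 100 Igkv counts, glands in blue and tumours in orange. The curves of tumours 6 and 2 start at 28.9% and 20.3%, and those of glands 2 and 3 at 5.40% and 4.92%.

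The other kappa members were spread over the libraries rich in Igkc, which follows in part from choosing members by summed count. Igkv3-12 and Igkv5-43 were highest in tumour 6 (3.11 and 2.33 CPM), Igkv6-15 in tumour 5 (1.98 CPM), Igkv1-135 in tumour 1 (2.31 CPM), Igkv1-117 in gland 3 (2.39 CPM), and Igkv10-96 and Igkv6-32 in gland 2 (1.86 and 2.73 CPM). To reach the limit for members, Igkv5-43 needed its 84 of 217 counts in tumour 6 and Igkv6-15 its 107 of 240 in tumour 5. Igkv10-96 and Igkv6-32 needed their 119 of 237 and 175 of 227 counts in gland 2. For these genes the library named as highest is therefore not independent of the choice of members. Igkv6-15 had no count in tumours 1 to 4, although tumour 1 held 503 Igkv counts. Of the 7 kappa segments tested, 0 passed the threshold by edgeR or DESeq2, and 0 had an unadjusted edgeR p under 0.05. Of the 107 Igkv symbols, 13 had 3 or more counts in each of the 6 libraries compared.

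In tumour 6, heavy chain segment counts were concentrated on a few symbols. Ighv6-6, which reached the limit for members only through this library, had 213 of its 614 Ighv counts, or 34.7% (exact interval 30.9% to 38.6%), and Ighv2-9 had a further 78, or 12.7%. In glands 2 and 3 Ighv6-6 took 1.55% and 2.03%, and it had no count in tumours 1 to 5, where tumour 5 held 130 Ighv counts and the exact interval reaches 2.80%. In glands 2 and 3 the leading segments were Ighv2-2 with 6.19% and Ighv9-3 with 10.2%, in tumour 1 Ighv9-3 with 16.0% of only 50 counts, and in tumour 5 Ighv5-6 with 8.46%. At a depth of 50 counts, 33.3 and 31.1 segments were expected in glands 2 and 3, 20.0 in tumour 1, 29.5 in tumour 5 and 21.1 in tumour 6. Tumour 6 thus had the leading heavy and the leading kappa segment with the largest shares among the libraries with at least 100 counts of the class.

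Lambda segments were compared in the 6 libraries with at least 16 Iglv counts. Iglv3 led in glands 2 and 3 with 53.3% and 50.5% of the Iglv counts, and Iglv1 followed with 37.6% and 41.1%. In tumours 1, 2, 5 and 6 Iglv1 led with 72.2%, 68.8%, 66.5% and 86.1%, although tumours 1 and 2 held only 36 and 16 such counts. Gland 1 had 5 of 7 Iglv counts on Iglv1 and gland 4 had 2 of 2, and tumours 3 and 4 held 1 and 2 Iglv counts. Iglv3 took 14.9% in tumour 5 and 7.29% in tumour 6. The log2 fold changes of Iglv1 and Iglv3 were 0.29 ± 1.40 (SE; edgeR adjusted p = 0.899) and -2.43 ± 1.43 (SE; edgeR adjusted p = 0.250). Iglv1 shares 97.4% of its bases with Iglv2 but 51.5% with Iglv3, so its reads are easier to tell from those of Iglv3 than from those of Iglv2.

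Genes that carry antibodies across cells were read beside them. Pigr, the receptor that brings polymeric IgA and IgM into milk and other secretions, measured 0.456, 0.452, 0.667 and 0.444 CPM in glands 1 to 4. In tumours 1 to 6 it measured 436, 9.41, 1.68, 0.986, 21.6 and 144 CPM, so every tumour was above every gland. Its log2 fold change was 7.67 ± 1.91 (SE; edgeR adjusted p = 0.0246), and without tumours 1 and 6, the 2 with salivary transcripts, it was 4.06 (edgeR adjusted p = 0.0196). The difference no longer passed when any single gland was left out (edgeR adjusted p up to 0.0781) and with limma-voom (adjusted p = 0.211), and it was 6.13 without tumour 1. A list of receptors for polymeric immunoglobulin or Fc regions, which also held the partner chains B2m and Fcer1g, had 12 tested genes. Of these 12 genes, 2 rose (Pigr and Fcgr4) and 2 fell (Fcgrt and Fcer2a) by edgeR, 2 and 3 at an unadjusted p under 0.05, and 2 and 3 by DESeq2. Their median log2 fold change was -0.01. Fcgr4, an activating IgG receptor of myeloid cells, rose by 2.75 ± 0.57 (SE) on the log2 scale (edgeR adjusted p = 0.0130). Fcgrt, the neonatal Fc receptor that protects IgG from breakdown, fell by 2.25 ± 0.63 (SE; edgeR adjusted p = 0.0364), a call lost without any 1 of glands 1, 2 and 3 or tumours 2, 4 and 5 and with age as a covariate (edgeR adjusted p = 0.0799), and it was -2.87 without tumour 6. Fcer2a, the low-affinity IgE receptor of B cells, fell by 4.98 ± 1.18 (SE; edgeR adjusted p = 0.0207) and was high only in glands 2 and 3 (42.0 and 40.1 CPM), and the call was lost without gland 2 (-4.39), with limma-voom (adjusted p = 0.0861) and with age as a covariate (edgeR adjusted p = 0.0837). Of the genes named as risen or fallen from here on, and of Pigr, Fcgr4, Fcgrt and Fcer2a, none passed by edgeR without glands 2 and 3 (adjusted p from 0.0520 for Tnfsf13 to 0.850 for Fcer2a), a fit that keeps 2 glands.

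**Figure D5:**
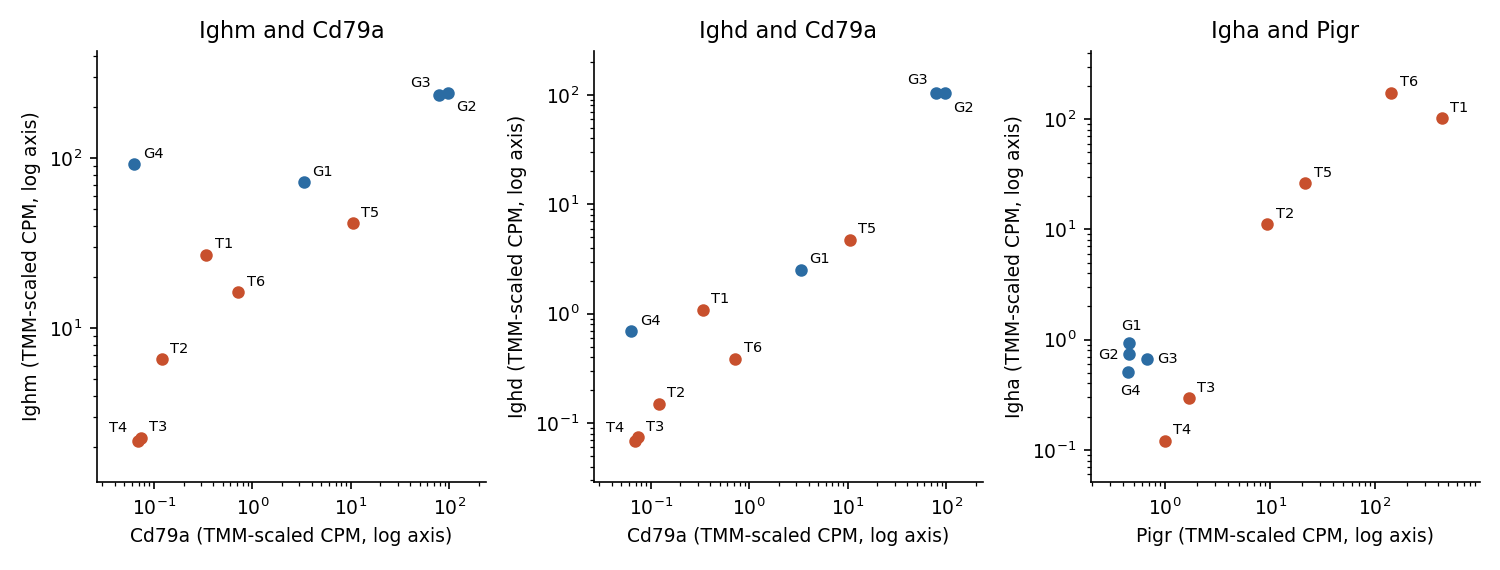
TMM-scaled CPM of a heavy chain gene (y axis, log scale) against that of a marker (x axis, log scale) in each library, with G for gland, T for tumour and the library's number. Gland 4 has 92.7 CPM of Ighm with 0.0635 CPM of Cd79a (left), and in the right panel tumours 1, 2, 5 and 6 are high in both Igha and Pigr.

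Of 12 B cell markers, 0 rose and 1 (Fcer2a) fell by edgeR, 0 and 7 at an unadjusted p under 0.05, and 0 and 5 by DESeq2, with a median log2 fold change of -3.46. Their summed level was 512 and 542 CPM in glands 2 and 3, 178 in tumour 5, and 14.4 to 28.0 in the other 7 libraries. Cd79a (-4.50 ± 1.72 SE, edgeR adjusted p = 0.0962) and Ms4a1, which encodes CD20 (-2.32 ± 1.10 SE, edgeR adjusted p = 0.162), did not pass. Cd79a passed without tumour 5 (edgeR adjusted p = 0.0194) and changed sign to 0.18 without glands 2 and 3. Tumour 5 held genes of B cell follicles, with 82.1 CPM of the complement receptor Cr2, against 55.2 and 71.1 in glands 2 and 3 and at most 1.23 elsewhere. In that tumour the B cell transcription factor Spib and the coactivator Pou2af1 measured 422 and 135 CPM, above the 31.7 and 31.1 of gland 2. Cr2, Spib and Pou2af1 are named here after their values were seen. Of 12 T cell markers, 0 rose and 1 fell by edgeR, 0 and 11 at an unadjusted p under 0.05, and 0 and 11 by DESeq2. The 1 that fell was Trac (T cell receptor alpha, -4.69 ± 1.43 SE, edgeR adjusted p = 0.0475), whose call was lost in 8 of 10 fits without 1 library (kept without gland 4 or tumour 5), where its log2 fold change ran from -6.23 without tumour 5 to -4.01 without gland 2, and also with upper-quartile scaling, no filter, limma-voom, age or without tumours 1 and 6 (adjusted p from 0.0521 to 0.138). Cd3e, a T cell receptor chain, was at -4.67 ± 1.49 (SE; edgeR adjusted p = 0.0557).

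Plasma cell genes did not move together. Of 12 tested, 3 rose (Sdc1, Derl3 and Fkbp11) and 1 fell (Irf4) by edgeR, 4 and 2 at an unadjusted p under 0.05, and 3 and 2 by DESeq2, with a median of 0.80. The 3 that rose also serve other secretory or epithelial cells: Sdc1 is a surface proteoglycan of epithelium as well as plasma cells, and Derl3 and Fkbp11 act in the endoplasmic reticulum. Sdc1 rose by 2.61 ± 0.66 (SE; edgeR adjusted p = 0.0258) and Derl3 by 6.02 ± 1.58 (SE; edgeR adjusted p = 0.0295), but neither passed when any single gland was left out or with limma-voom (adjusted p = 0.0573 and 0.164). Derl3 reached 127 CPM in tumour 1, without which its log2 fold change was 3.98, and with limma-voom it was 3.60. Fkbp11 rose by 3.39 ± 0.68 (SE; edgeR adjusted p = 0.0112) and stayed called whichever single library was left out, with 2.80 without tumour 1. Irf4, a transcription factor needed for class switching and plasma cells, fell by 3.45 ± 0.84 (SE; edgeR adjusted p = 0.0232). It measured 23.7, 29.6, 23.4 and 5.52 CPM in glands 1 to 4 and at most 4.01 CPM in a tumour (tumour 1), and its call was lost without gland 1 or gland 2 and with age as a covariate (edgeR adjusted p = 0.0769). Prdm1, the plasma cell regulator Blimp-1, was at 0.83 ± 0.47 (SE; edgeR adjusted p = 0.237), and Tnfrsf17, the plasma cell survival receptor BCMA, at -2.27 ± 0.75 (SE; edgeR adjusted p = 0.0624). Tnfrsf17 passed without tumour 1 or tumour 6, with DESeq2 (adjusted p = 0.0173) and with limma-voom (adjusted p = 0.0170). In tumours 2 and 5, where Igha measured 11.1 and 26.2 CPM, Tnfrsf17 was at 0.0604 and 0.0741 CPM, below every gland.

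Signals for the homing and survival of plasma cells were measured with 16 tested genes. The list is not limited to IgA plasma cells. Cxcr5 and Tnfrsf13c in it were highest in glands 2 and 3, as the summed B cell markers were. Of the 16 genes 1 rose (Tnfsf13) and 1 fell (Itgb7) by edgeR, 1 and 7 at an unadjusted p under 0.05, and 1 and 5 by DESeq2, with a median of -1.82. Tnfsf13, the survival factor APRIL, rose by 2.01 ± 0.40 (SE; edgeR adjusted p = 0.0112), with every tumour (6.87 to 17.4 CPM) above every gland (1.52 to 4.17 CPM), and stayed called whichever single library was left out. Itgb7, an integrin chain used for homing to mucosal tissue, fell by 3.65 ± 0.92 (SE; edgeR adjusted p = 0.0253), a call lost without any 1 of glands 2 and 3 or tumours 2 and 4, without tumours 1 and 6 (edgeR adjusted p = 0.0598), with age as a covariate (edgeR adjusted p = 0.0602) and with limma-voom (adjusted p = 0.0521), and it was -4.40 without tumour 5. Ccl28, the chemokine for IgA plasma cells, measured 0.508 to 1.28 CPM in the glands, 28.0 and 7.49 CPM in tumours 1 and 6, and 0.0247 to 0.619 CPM in the other 4 tumours. Its log2 fold change was 2.85 ± 1.63 (SE; edgeR adjusted p = 0.237), and without tumours 1 and 6 it was -1.75. Ccr10, the receptor for Ccl28, was at -1.94 ± 0.79 (SE; edgeR adjusted p = 0.115), and it passed without tumour 5 (-3.01, edgeR adjusted p = 0.0189) and with limma-voom (adjusted p = 0.0345).

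Of 12 tested genes of class switching and the germinal centre, 2 rose (Exo1 and Ung) and 1 fell (Bcl6) by edgeR, 4 and 2 at an unadjusted p under 0.05, and 2 and 1 by DESeq2, with a median of 0.81. Exo1 and Ung also repair DNA in dividing cells of any kind. Exo1 rose by 3.49 ± 0.65 (SE; edgeR adjusted p = 0.00879) and stayed called whichever single library was left out, with 2.87 without tumour 3. Ung rose by 1.15 ± 0.31 (SE; edgeR adjusted p = 0.0342) and Bcl6, a germinal centre repressor that many other cells also express, fell by 1.74 ± 0.47 (SE; edgeR adjusted p = 0.0320). Each was called in 4 of 10 fits without 1 library: Ung lost its call without any 1 of the 4 glands or tumours 2 and 4, and Bcl6 without glands 1, 2 or 4 or tumours 3, 4 or 5. Ung also lost it with no filter or with age (edgeR adjusted p = 0.0775 and 0.0517), and Bcl6 with upper-quartile scaling or without tumours 1 and 6 (edgeR adjusted p = 0.0525 and 0.0513). None of 6 genes of recombination and the surrogate light chain (such as Rag1 and Rag2) passed the filter on low counts. Of 13 factors that act on immunoglobulin promoters and enhancers, 0 rose and 2 fell (Irf4 and Ebf1) by edgeR, 0 and 4 at an unadjusted p under 0.05, and 0 and 4 by DESeq2, with a median of -0.41. Ebf1, a B cell factor that fat cells and their precursors also express, fell by 2.10 ± 0.62 (SE; edgeR adjusted p = 0.0430). Adipocyte markers fell too (8 of 8). Ebf1 measured 89.26, 97.99, 128.5 and 112 CPM in glands 1 to 4, where adipocyte markers summed to 23380, 14720, 17080 and 3876 CPM. In tumours 1 to 6 Ebf1 measured 40.12, 5.874, 3.088, 43.02, 33.86 and 23.84 CPM. Adipocyte markers there summed to 556.7, 9.287, 14.21, 14.83, 132.2 and 1013 CPM. The part of fat tissue in the fall of Ebf1 was not tested. The call of Ebf1 was lost in 8 of 10 fits without 1 library (kept without tumour 1 or tumour 3). It was also lost with upper-quartile scaling, age or without tumours 1 and 6 (edgeR adjusted p from 0.0563 to 0.0750).

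The genes with the most similar patterns were found by the Pearson correlation of log2 levels over the 10 libraries, as a description. Nearest to Ighm were Proz (0.982), Pla2g2d (0.978), Timd4 (0.967), Grap (0.965), Siglech (0.964) and Stab2 (0.964). Siglech is a lectin of plasmacytoid dendritic cells, Timd4 a receptor of resident macrophages and Stab2 a scavenger receptor of sinus endothelium. Siglech measured 8.27, 26.0, 40.3 and 7.30 CPM in glands 1 to 4 and 0.519 to 8.80 CPM in the tumours. Nearest to Igha were Gm16025 (0.967), Cyp24a1 (0.962), Gm15433 (0.951), Gm2619 (0.949), Lrrc26 (0.944) and Pigr (0.932). Lrrc26, a channel subunit of secretory epithelium, measured 216 and 51.2 CPM in tumours 1 and 6, 20.7 in tumour 5, 3.91 in tumour 2 and at most 1.47 elsewhere. Nearest to Igkc were A530040E14Rik (0.949), C130026I21Rik (0.949), Klk1b27 (0.943), Mx1 (0.942), Slfn2 (0.938) and Phf11b (0.935). The genes nearest to Ighm were highest in glands 2 and 3, which held lymph node transcripts. Those nearest to Igha were highest in tumours 1 and 6, which held salivary transcripts. Those nearest to Igkc were high mainly in these 4 libraries and tumour 5, where Slfn2 was 60.6 CPM, against 41.8 and 43.6 in tumours 1 and 6. The part of these tissues was not tested.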

How the data were processed

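PolyA RNA of whole tissue was extracted with TRIzol and made into NEBNext Ultra libraries, per the labels' protocols. The authors deposited 1 table of raw counts, in whole numbers, with a row for each gene symbol. Salmon 1.2.0, DESeq and the mm9 build are named, without their roles, per the submitters' processing notes. The counting rule for near-identical segments is not given in the sources used.

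The members, gene lists and tests were chosen with earlier results of these data known. Counts of 4 glands and 6 tumours were fitted with edgeR 4.0.16 in R 4.3.3 (filterByExpr, TMM, quasi-likelihood test, no covariate, Benjamini-Hochberg adjustment over 20101 genes, threshold 0.05). Each standard error was obtained from the fold change (log2) and the F statistic, as their ratio after taking the root of F. The biological coefficient of variation was 0.707. Correlations used log2 CPM with a prior count of 2. Tested on data simulated with the same coefficient of variation, 0.707, for every gene, the script recovered the fold changes it was given. Igha varied more than that among the tumours (52.4 ± 71.0 CPM, SD, n = 6). The simulation does not cover genes as variable as that. The alternatives tried were DESeq2 1.42.0, limma-voom (limma 3.58.1), scaling by RLE or the upper quartile, no filter, a stricter filter (1 CPM in 4 libraries), age as a covariate and libraries left out. The fit without tumour 5 and glands 2 and 3, the depths of 200 and 50 counts and the minimum of 100 class counts were chosen after the counts were seen. Diversity was planned over members and is given over all symbols of a class, since 1 Ighv symbol was a member. Intervals are exact (Clopper-Pearson, 95%).

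Named genes were all constant regions, Jchain and Mzb1, the leading segments, preset marker genes, up to 3 called genes per list and direction, and the 6 genes most like each of Ighm, Igha and Igkc. Groups were taken from the labels, which pair no libraries. Total counts were 13723065 to 48353114 per library. Some genes are not reported here. The planned promoter search was not made, since the promoter table held 1 member.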

Additional observations from a re-analysis of the deposited data

Results flagged for a closer look

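Within the 6 tumours, single libraries stood far from the other 5 for several members, by the gap to the nearest library relative to the whole range. Tumour 5 was highest for Ighd (4.76 TMM-scaled CPM), Ighg3 (0.834), Igkv6-15 (1.98) and Mzb1 (4.26), for the Ighg3 share of heavy chain counts (1.08%) and for Ighd counts per Ighm count (0.114). The same tumour held 178 CPM of B cell markers, 82.15 of it from Cr2, against at most 28.0 in the other tumours. The part of B cells in these values was not tested. Tumour 6 was highest for Ighv6-6 (5.91 CPM), Igkv1-110 (19.7), Igkv3-12 (3.11) and Igkv5-43 (2.33). Ighv6-6 reached the summed count of a member only through that tumour, so its mark follows from how members were chosen. Igkv5-43 also needed its 84 of 217 counts in tumour 6 to reach that limit. Igkv6-15 and Ighg3 likewise needed their 107 of 240 and 45 of 221 counts in tumour 5. The marks of these genes are included in the count that follows. Among the 4 glands, gland 2 was apart in Jchain counts per heavy chain count (0.0643). In all, 11 of 72 groups of values were marked in this way, of which 6 lie in tumour 5 and 4 in tumour 6. Chance marks about 1 in 20 only where values are normally distributed. Many of these levels and ratios were skewed and were not put on a log scale, so the rate expected here is not known. Values of 1 library are also not independent of each other.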

How the results depend on the processing

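No paired analysis was possible because the labels give the libraries no shared replicate numbers. Scaling by RLE or upper quartile, DESeq2, no filter and the stricter filter kept 1 member higher and 2 lower. With limma-voom, with age as a covariate and without tumours 1 and 6, 0 were higher and 1 lower. Without glands 2 and 3, and without these and tumour 5, it was 0 and 0. Over fits without 1 library, 0 to 1 member was higher and 0 to 2 were lower. In all genes, 1384 were higher and 1646 lower, against 1809 and 1313 with upper-quartile scaling, which moved the median log2 fold change from 0.17 to 0.32. DESeq2 called 2881 and 2742, the fit with age 908 and 991, that without glands 2 and 3 174 and 836, and that without tumour 5 and these glands 74 and 524. Without 1 library, 430 to 1737 were higher and 623 to 1849 lower. Fewer were higher by over 1.5 times without any 1 gland or without tumour 4 (430, 541, 579, 883 and 883 without glands 1 to 4 and tumour 4), and fewer lower without gland 1, gland 2, tumour 2 or tumour 4 (623, 955, 1026 and 954).

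Signs that changed belonged to genes that did not pass the test, apart from Trac. Without glands 2 and 3 the log2 fold changes were 1.43 for Ighg1, 3.91 for Iglc1, 2.26 for Iglc2, 1.505 for Iglc3, 2.80 for Iglv3, 1.03 for Mzb1, 0.18 for Cd79a, 2.16 for Ms4a1, 0.23 for Cd3e and 0.55 for Trac. Without tumour 5 as well they were 0.79 for Ighg1, 2.96 for Iglc1, 1.43 for Iglc2, 0.64 for Iglc3, 2.11 for Iglv3 and 1.57 for Ms4a1. Igkc was at -0.64 with limma-voom, -1.13 without tumours 1 and 6, and -0.36 to 0.92 without 1 library. Ccl28 was at -0.58 with limma-voom and -1.75 without tumours 1 and 6. The cause was not tested.

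The median inverse Simpson number of Igkv was 48.3 in the glands and 21.7 in the tumours. With the exponential of Shannon entropy it was 60.8 and 35.1, and over members alone 7.51 and 3.63. The median number of Igkv segments with 3 or more counts was 77 and 57.5, against 53.5 and 30 with 10 or more counts, 8 and 7.5 over members alone, and 3.88 and 3.73 at a depth of 4 counts, the fewest in any library. The median of these 2 glands was above that of these 4 tumours in each. Medians of the member, Igha and Ighm shares, which cover all 10 libraries, moved by less than 1 SD under every alternative tried, but that SD is wide. Outside mitochondrial and salivary counts the tumour median of the member share was 0.0250%, against 0.0129%. Without 1 library the gland median of that share ran from 0.00913% (without gland 2 or 3) to 0.0727% (without gland 1 or 4), and that of the Igha share from 0.204% (without gland 1 or 4) to 0.538% (without gland 2 or 3). Low counts limit the shares of gland 4 and tumours 3 and 4 most.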
